A study of Oryza sativa with 12 samples.

Results

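Gene expression in rice panicles was compared between line 252, labelled heat tolerant, and line 082, labelled heat sensitive, both grown at optimal temperature with 30 °C days and 25 °C nights. They make up 6 of the 12 arrays of the series, 3 of line 252 and 3 of line 082, and were chosen by their labels alone. The other 6 arrays, 3 of each line after 5 days of heat with 37 °C days and 30 °C nights, entered the shared estimate of the spread and one comparison near the end. Tissue was labelled panicle for all arrays, and replicates were labelled biological. The stage of the panicles, the time of day of sampling, the number of plants behind an array and the pedigree of the lines were not given. Differences between the lines at 1 temperature are therefore differences between these panicles as sampled.

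A rice panicle carries spikelets that flower over several days, and after fertilization each ovary grows into a grain. The endosperm of the grain fills with glutelins, prolamins and starch, and its embryo and aleurone build up dehydrins and other late embryogenesis abundant (LEA) proteins. Small heat shock proteins, which keep unfolding proteins in soluble form, are known both from heated leaves and from maturing seeds kept at moderate temperature. Genes of the circadian clock cycle over the day, with CCA1 peaking around dawn and GI and PCL1 towards evening.

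The arrays were 1-colour Affymetrix rice arrays with 57381 probe sets, and values are MAS5 signals on a linear scale in arbitrary units. Replicates correlated at 0.958 to 0.975 in line 252 and 0.948 to 0.965 in line 082, and arrays of different lines at 0.77 to 0.858. The 10 flower MADS-box markers fitted the panicle label, with summed signals of 35593 to 54723 in line 252 and 26565 to 30755 in line 082. Markers of other tissues in the sample differed as well. The sum of 14 grain markers was 671, 832 and 17481 on the 252 arrays and 227940 to 307413 on the 082 arrays, with none listed at 0 and GLUB-4 near background in both lines (33.3 and 20.7). Array quality moved with the line too: the 3′/5′ signal ratio of actin averaged 31.0 ± 4.20 on the 252 arrays and 5.54 ± 1.38 on the 082 arrays (SD, n = 3 each), and that of GAPDH 7.13 ± 2.11 and 1.80 ± 0.343. The ratio of the Dap spike, a bacterial transcript added to follow labelling, averaged 2.23 ± 0.11 for line 252 and 2.12 ± 0.34 for line 082. The 18S ribosomal RNA signal averaged 1164 ± 189 for line 252 and 22254 ± 3560 for line 082. The part that tissue makeup and RNA quality have in the results below was not tested.

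The lines differed widely. A probe set was called when its adjusted p from limma was under 0.05 and its log2 difference, line 252 minus line 082 on log2(signal + 16), was at least 1 in size. Of 33610 probe sets tested, 5142 (15.3%) were higher and 4066 (12.1%) were lower in line 252. Counted once per gene, 3110 of 16542 genes (18.8%) were higher and 1668 (10.1%) were lower. Counts per gene list below are to be read beside these shares, which were larger for genes higher in line 252. Probe sets were kept where they passed the array median on 3 or more of the 12 arrays, and 633 of those higher (12.3%) and 774 of those lower (19%) passed only through the optimal arrays of the line where they were higher. Such probe sets had to differ, and their differences are descriptions. Counts of gene lists below include such genes. Among the named genes they were GLUA-1, GLUA-3, GLUD-1, PROLM25, RA5, RA14, RA17, NF-Y4, VP1, CESA2, EAT1, ETR4 and MADS27 on the lower side and CM-LOX1, CYP703A3, AMT3-3, CPK2, CSLD5, EXPA32, EXPB10, KIN14Q, KIN14R, MCM9, PCF3 and PRX74 on the higher side. The called differences were of unlike size: 143 of those higher and 389 of those lower in line 252 reached a log2 difference of 4, and 10 and 142 reached 6. Scaling set the balance of the calls. The share higher in line 252 was 55.8% with the arrays as deposited, 44.8% after centring on the 75th percentile and 69.6% after scaling to the hybridization spikes, which placed the median difference of all probe sets at 0.11, −0.06 and 0.33. The arrays of the lines did not overlap for 53.8% of probe sets, and for 8921 of the 9208 called. The named genes with the largest differences were chosen among calls without overlap. Lack of overlap in single genes below is therefore a description.

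**Figure D1:**
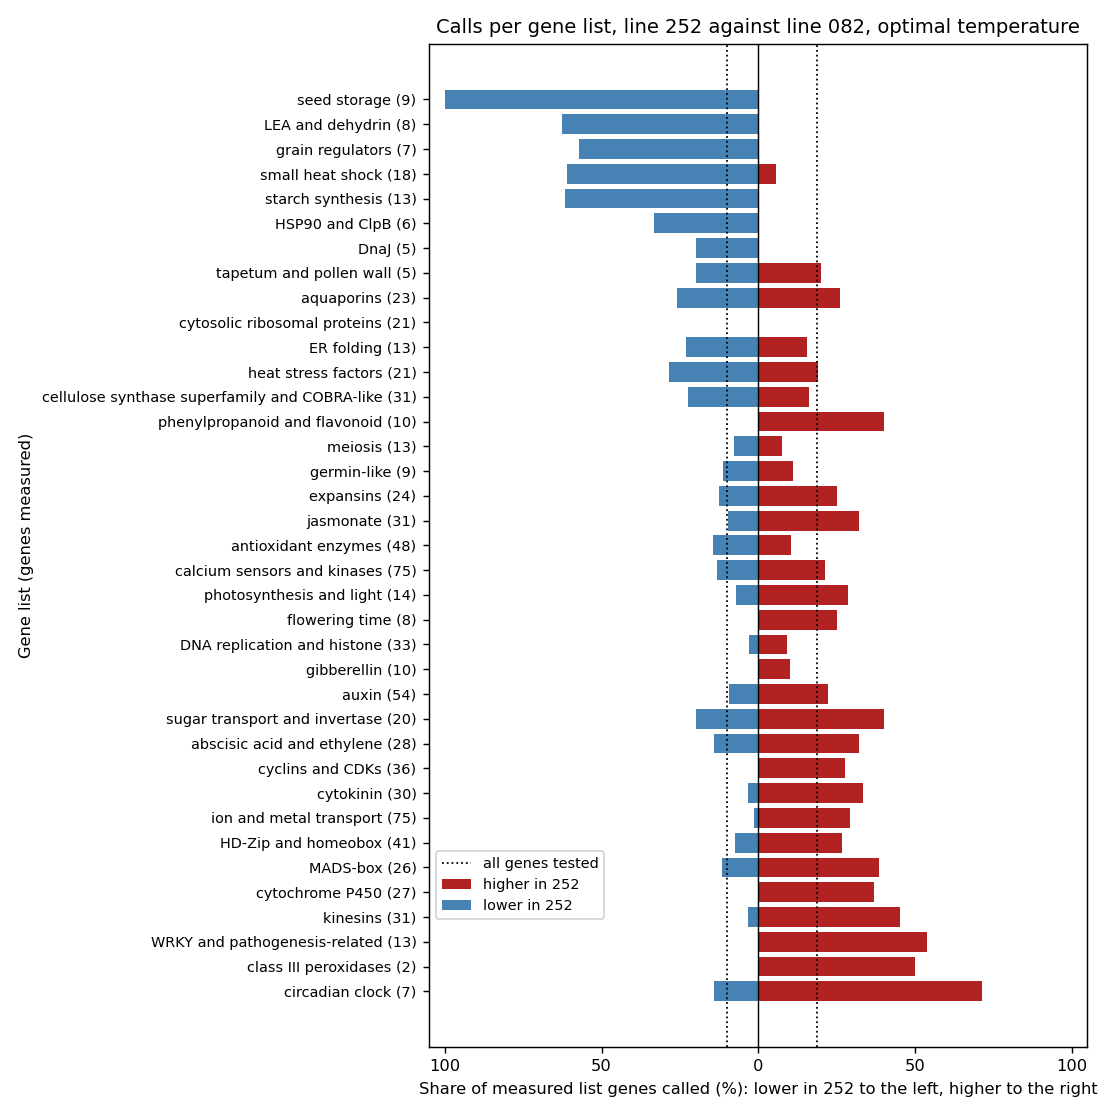
Share of the measured genes of each of 37 gene lists called lower in line 252 (left) or higher in line 252 (right) at optimal temperature, in percent, with the number of genes measured in parentheses and lists ordered by their median difference. Dotted lines mark the shares over all genes tested, 10.1% lower and 18.8% higher. All 9 seed storage genes lie on the lower side, and 5 of 7 clock genes lie on the higher side.

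Seed storage protein genes were dim in line 252 and among the brightest signals on the 082 arrays. Of 10 genes in the seed storage list 9 passed the filter on low signals, and all 9 were lower in line 252, with a median log2 difference of −9.45, where the median over all genes was 0.23. Apart from GLUB-5 and GLUA-2, these genes passed that filter only through the 082 arrays and so had to differ, and the count is a description. GLUA-1 (LOC4327027), a glutelin of the endosperm, had signals of 22.1, 1.42 and 21.2 in line 252, against 31875, 43372 and 40020 in line 082. Its log2 difference was −10.35 ± 0.51, where the error, here and below unless marked SD, is the standard error from limma. The prolamin gene PROLM25 (LOC4342688) had 2.84, 1.64 and 4.07 in line 252, against 16601, 26307 and 23575 in line 082, a difference of −10.18 ± 0.36. Each 082 array lay at 16601 or above for both genes, and no 252 array passed the array medians of 55.2 to 61.5.

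The other glutelins called and the seed allergens of the albumin family were lower in line 252 too. GLUD-1 had 8.5, 6.63 and 3.37 in line 252, against 20553, 23813 and 24271 in line 082. GLUA-3 differed by −9.48 ± 0.50, GLUB-5 by −8.05 ± 0.29 and GLUA-2 by −7.47 ± 0.28. Among the allergens RA14 differed by −9.45 ± 0.61, RA5 by −9.41 ± 0.40 and RA17 by −9.08 ± 0.41; replicate 1 of line 082 had the lowest RA17 signal of its group, 8307, and still lay far above the 252 arrays, at 2.46 to 17.6. Adding 16 to signals this low sets the size of these differences, less so for GLUB-5 (79.6 to 111 in line 252) and GLUA-2 (148 to 168). These lay above the array medians. Another probe set of GLUA-2 differed by 0.63 and another of RA17 by −1.85. Glutelin and allergen copies are similar enough that single members are uncertain. A smaller share of grain cells and less RNA per cell cannot be told apart in these bulk samples.

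**Figure D2:**
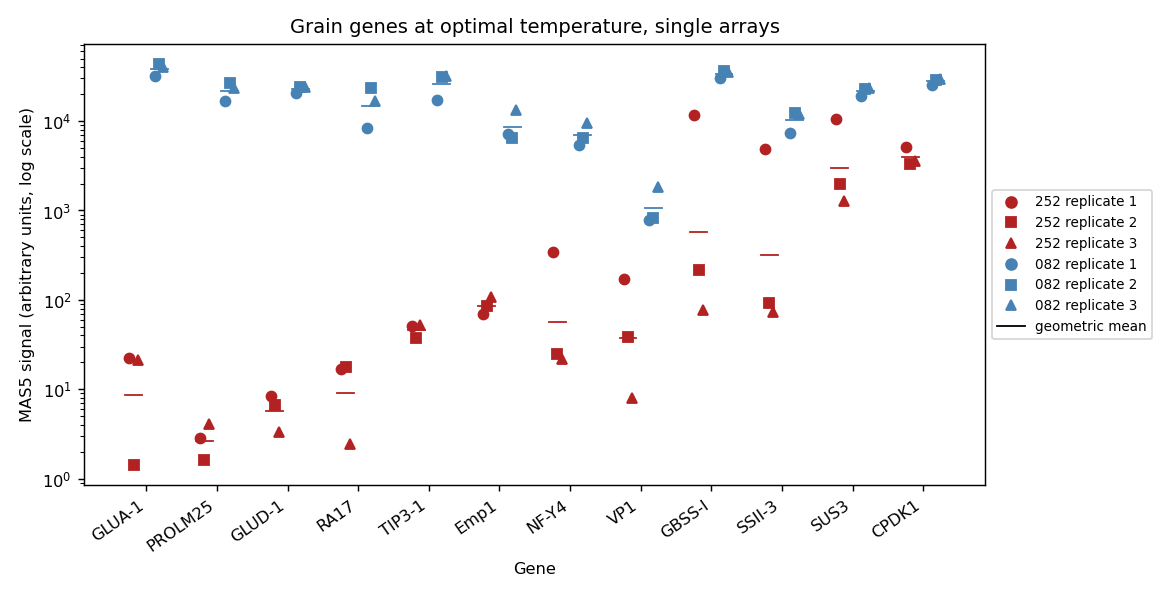
Signals of 12 grain genes on the single arrays at optimal temperature, on a log scale, for line 252 (red, left of each pair) and line 082 (blue, right), with markers for the replicates and lines for the geometric mean. All 12 genes were higher on every 082 array, and replicate 1 of line 252 stood well above the other 252 arrays for NF-Y4, VP1, GBSS-I, SSII-3 and SUS3, with GBSS-I at 11646 against 216 and 76.6.

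Starch synthesis genes were lower in line 252 in 8 of 13 cases and higher in none (1 without replicate 1 of line 082), with a median difference of −1.44. GBSS-I (LOC4340018), the granule-bound enzyme that makes amylose, had 11646, 216 and 76.6 in line 252, against 30191, 36099.7 and 35516 in line 082, a difference of −5.75 ± 1.28 (SE; adjusted p = 0.00283). SSII-3, a soluble starch synthase of the endosperm, had 4885, 92.2 and 73.9 in line 252, against 7422, 12285 and 11871 in line 082. A further SSII-3 probe set differed by −0.15. The sucrose synthase gene SUS3 had 10516, 1957 and 1267 in line 252, against 19105, 22809 and 23570.2 in line 082. The groups did not overlap, but replicate 1 was by far the brightest array of line 252 for all 3 genes.

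Values without replicate 1 of line 252 were larger. The difference was −7.85 in place of −5.75 for GBSS-I, −6.70 in place of −4.83 for SSII-3 and −3.77 in place of −2.86 for SUS3, and 8 starch genes were again lower. The branching enzyme gene Rbe1 was even over replicates, with 4139.6, 2892 and 3326 in line 252, against 24488, 31013 and 30224 in line 082, and differed by −3.05 ± 0.14 (SE; adjusted p = 1.24e-08). Its other probe sets differed by −3.52 to −0.55. FLO6, SUS1, SSII-1, SSII-2 and SUS5 were not called and were taken up here after their values were seen, to complete the list, with differences of −0.27 to 0.80.

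Of 7 regulators of grain filling 4 were lower in line 252, where 10.1% of all genes were, and the median was −2.28. Of the 4, NF-Y4 and VP1 passed the filter on low signals only through the 082 optimal arrays and so had to differ. NF-Y4, a subunit of a trimeric transcription factor, had 343, 25.1 and 21.8 in line 252, against 5454, 6387 and 9514 in line 082. VP1, which drives seed maturation through abscisic acid, had 169, 38.7 and 8.07 in line 252, against 785, 829 and 1814 in line 082. Both were again brighter in replicate 1 than in the other 252 arrays, and without it they differed by −7.46 and −4.89 in place of −6.40 and −4.10. CPDK1, the cytosolic pyruvate phosphate dikinase of filling endosperm, had 5069, 3324 and 3555 in line 252, against 25442, 28770.3 and 29394 in line 082, and differed by −2.82 ± 0.16 (SE; adjusted p = 1.02e-07). RISBZ5, a bZIP factor gene, differed by −2.28 ± 0.37.

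Part of the LEA and dehydrin genes were also lower in line 252. Of 8 LEA and dehydrin genes 5 were lower and 0 higher, with a median of −4.31. Emp1, an LEA protein of the embryo, had 70.2, 85.6 and 107 in line 252, against 7111, 6526 and 13186 in line 082, and differed by −6.37 ± 0.26 (SE; adjusted p = 5.65e-09). RAB21, a dehydrin induced by abscisic acid and drying, had 25.9, 3.43 and 8.88 in line 252, against 1634, 1329 and 2369 in line 082. LEA19 (−5.75 ± 0.27) and rab25 (−5.30 ± 0.41) were lower by a similar amount, with every 252 array under every 082 array.

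Further named genes were lower in line 252. TIP3-1 is a tonoplast aquaporin of seed storage vacuoles, with 51.4, 37.1 and 52.9 in line 252, against 17083, 31424 and 32109.5 in line 082 and a difference of −8.69 ± 0.33 (SE; adjusted p = 2.92e-09). Its relative TIP3-2 differed by −4.24 ± 0.41. R1C-Prx, the 1-Cys peroxiredoxin of the embryo and aleurone, had 36.1, 55.5 and 60.2 in line 252, against 10444, 14018 and 18473 in line 082, a difference of −7.73 ± 0.30. The lipid transfer protein gene LTP-2 had 490.4, 222 and 174 in line 252, against 16533, 24668 and 23735 in line 082, and differed by −6.23 ± 0.55. CPK23, of the calcium-dependent protein kinase family, averaged 725 ± 234 in line 252 and 25619 ± 4870.4 in line 082 (SD, n = 3), a difference of −5.14 ± 0.49. The germin-like cell wall protein gene GER3 differed by −5.37 ± 0.85; at high temperature, where the grain markers were dim, it averaged 15934 ± 15983 in line 252 and 8401 ± 10134 in line 082 (SD, n = 3). For all of these genes the arrays of the lines did not overlap, which was a condition of choice for TIP3-1, R1C-Prx and LTP-2.

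Small heat shock protein genes were lower in line 252, although neither line had been heated. Of 18 measured members 11 were lower, 1 was higher and 6 were not called, with a median of −2.04. HSP26.7 (LOC4332237) had 30, 27.4 and 37.6 in line 252, against 1353, 1052 and 1857 in line 082, a difference of −4.88 ± 0.42 (SE; adjusted p = 2.57e-06). HSP24.1 had 1366, 267 and 263 in line 252, against 7594, 8795 and 9948 in line 082, and here too replicate 1 was the brightest 252 array. HSP18.6 differed by −4.00 ± 0.30 and HSP16.9A by −3.93 ± 0.30. The exception was HSP18.8, named after its values were seen, which was higher in line 252 at 6377, 6362 and 7103 against 3885, 1408 and 1965 in line 082 (1.57 ± 0.28). The number lower was 10 to 12 under the alternatives that kept the fold minimum. As family members are similar, values of single small heat shock genes and dehydrins are uncertain.

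Heat stress transcription factors split by gene. Of 21, 6 were lower and 4 higher in line 252, around a median of −0.13. HSFB2A, of the class B factors, had 428, 431 and 331 in line 252, against 3060.5, 3493 and 4018 in line 082, and differed by −3.10 ± 0.19 (SE; adjusted p = 1.67e-07). HSFB2C differed by −2.85 ± 0.32. HSFA2A, of the class A activators, had 102, 47.1 and 92.4 in line 252, against 305, 331 and 724 in line 082, a difference of −2.22 ± 0.46 (SE; adjusted p = 0.00164). On the higher side HSFB4B had 893, 979 and 1052 in line 252, against 100.1, 135 and 83.6 in line 082, and HSFC1B differed by 2.92 ± 0.35. HSFA2E differed by 0.21 ± 0.15 and was not called. HSFA2D (0.03 ± 0.16) and HSFA2C (0.47 ± 0.38) were not called either, but other probe sets differed by −2.46 and −2.39, and the mean over its probe sets was −1.21 for HSFA2D and called. Their records carry merged names of other genes, so both are uncertain.

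The larger chaperones showed smaller differences. CLPB1, a disaggregase that frees proteins from aggregates, had 394, 384 and 394 in line 252, against 1247, 2124 and 2192 in line 082, and differed by −2.16 ± 0.28 (SE; adjusted p = 6.03e-05). The mitochondrial form CLPB-M differed by −1.66 ± 0.21. HSP81-1 (−0.66 ± 0.11) and HSP81-2 (−0.27 ± 0.10), cytosolic HSP90 genes, did not reach the fold minimum, so 2 of 6 HSP90 and ClpB genes were lower and 0 higher. The other HSP81-1 probe set differed by −1.17. Of 5 DnaJ co-chaperones DJC27 was lower (−1.23 ± 0.16), a difference under the minimum after scaling to the spikes (−0.98). Folding genes of the endoplasmic reticulum were mixed, with 3 of 13 lower and 2 higher. PDIL1-2, of the disulfide isomerase family, was higher (1.85 ± 0.30), with averages of 235 in line 252 and 53.9 in line 082. PDIL1-4, a disulfide isomerase, had 1895, 869 and 833 in line 252, against 13688, 20589.6 and 19715 in line 082, and differed by −3.97 ± 0.27 (SE; adjusted p = 4.49e-07). The chaperone gene BIP1 had 10392, 11766 and 11787 in line 252 and 16393, 22432 and 23198 in line 082, without overlap, at −0.85 ± 0.25 and not called; it was called after centring on the 75th percentile (−1.02) and without replicate 1 of line 082 (−1.01).

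**Figure D3:**
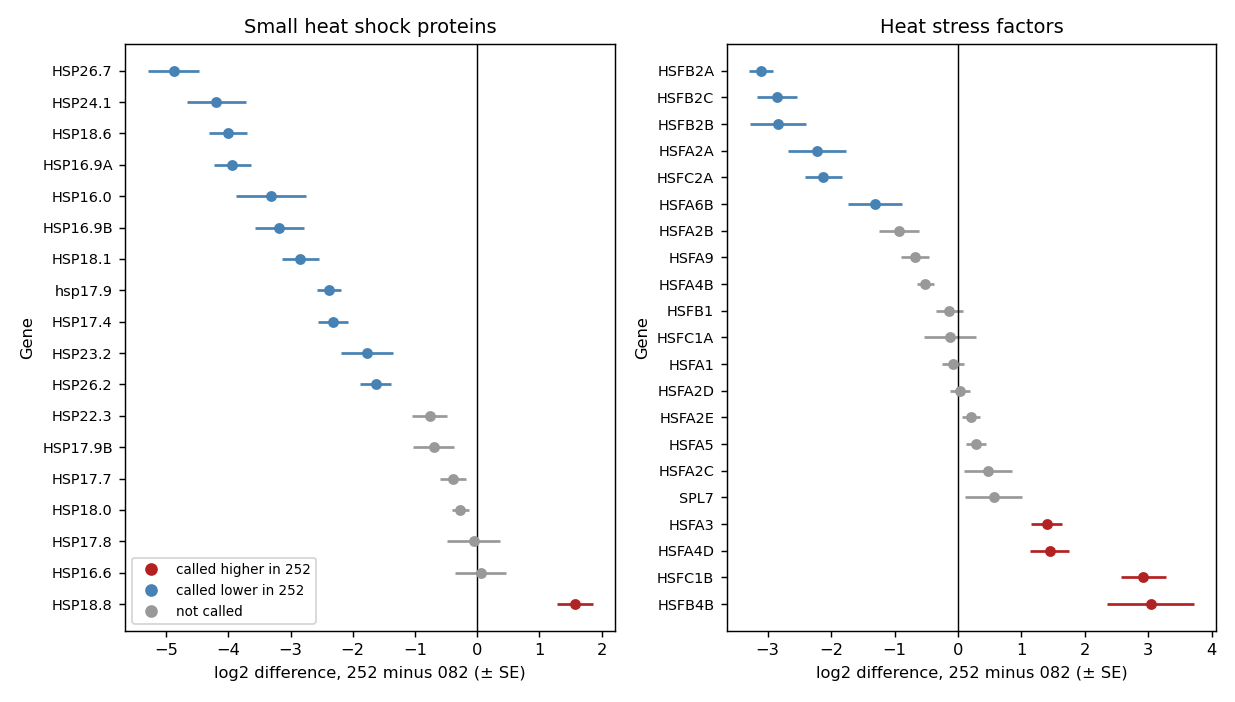
Log2 difference of line 252 minus line 082 at optimal temperature with its standard error for 18 small heat shock genes (left) and 21 heat stress factors (right), coloured by call. Small heat shock genes run from −4.88 to 1.57 with 11 called lower, and heat stress factors from −3.10 to 3.04 with 6 called lower and 4 called higher.

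The named genes with the largest differences on the higher side in line 252 are described singly and do not stand for their pathways. CM-LOX1 among them passed the filter on low signals only through the 252 optimal arrays. CIPK10 (LOC4332786), a kinase regulated by calcineurin B-like calcium sensors, had 3105, 3161 and 3452 in line 252, against 70.9, 84.5 and 72.6 in line 082, a difference of 5.15 ± 0.19 (SE; adjusted p = 2.49e-09). CM-LOX1, a plastid lipoxygenase, had 204, 2115 and 2118 in line 252, against 3.08, 29 and 20.9 in line 082, a difference of 4.98 ± 0.72 that was 6.08 without replicate 1 of line 252. The aspartic protease gene ASP1 had 2764, 7499 and 5856 in line 252, against 80.9, 519 and 93.6 in line 082, and differed by 4.80 ± 0.88. Replicate 1 was the lowest 252 array for CM-LOX1 and ASP1, and the groups did not overlap.

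GLT2, an NADH-dependent glutamate synthase gene, had 3444, 2779 and 4662 in line 252, against 291, 136 and 54.6 in line 082, and differed by 4.58 ± 0.43 (SE; adjusted p = 4.96e-06). AP25, an aspartic protease gene of the tapetum, had 5463, 9051 and 7116 in line 252, against 392, 558 and 198 in line 082, and differed by 4.26 ± 0.77 (SE; adjusted p = 0.000692). EAT1, the regulator known to activate AP25 in rice anthers, was lower in line 252, with 22, 20 and 14 against 82.5, 259 and 215 in line 082 (−2.42 ± 0.38). In line 252 the EAT1 signals lay under the array medians.

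The tonoplast aquaporin gene TIP4-1 had 11856, 13554 and 15603 in line 252, against 751, 817 and 682 in line 082, a difference of 4.15 ± 0.21 (SE; adjusted p = 3.7e-08). The potassium transporter gene HAK17 had 3829, 5055 and 4328 in line 252, against 352, 228 and 224 in line 082. The chitinase gene Cht6 (4.18 ± 0.64), the TCP factor gene PCF3 (4.01 ± 0.54) and BURP16 (4.0 ± 0.58), of a cell wall protein family, were also among the 15 largest. BURP16 ranged from 210.6 to 1681 in line 252 and stayed above the 082 arrays at 13.7 to 35.7.

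**Figure D4:**
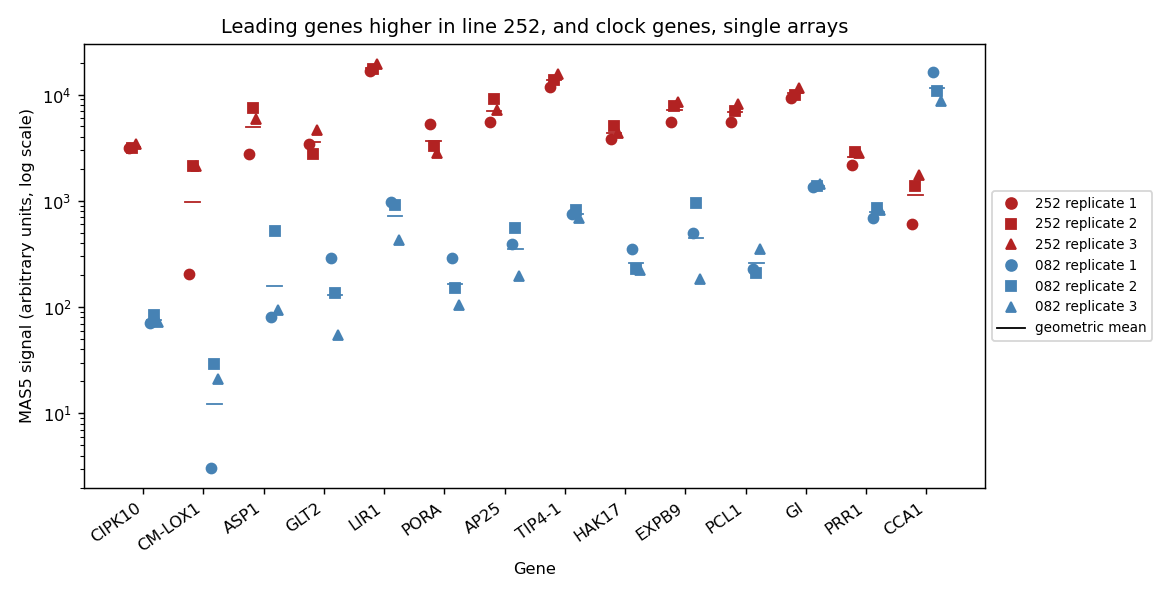
Signals of 14 genes on the single arrays at optimal temperature, on a log scale, for line 252 (red, left of each pair) and line 082 (blue, right), with lines for the geometric mean. The first 13 genes were higher on every 252 array, and the clock gene CCA1, at the right edge, was higher on every 082 array.

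Among clock genes CCA1 was lower in line 252 and most others were higher. The morning gene CCA1 (LOC4344703) had 600.3, 1377 and 1758 in line 252, against 16456, 10869 and 8655 in line 082, a difference of −3.33 ± 0.32 (SE; adjusted p = 6.1e-06). The evening gene PCL1 (LOC4326391), a component of the evening complex, had 5497, 7034 and 8158 in line 252, against 229, 211 and 354 in line 082, a difference of 4.64 ± 0.35 (SE; adjusted p = 8.58e-07). GI, which links the clock to flowering, had 9268, 9976 and 11587 in line 252, against 1348, 1364 and 1449 in line 082, and differed by 2.87 ± 0.14 (SE; adjusted p = 2.32e-08). None of the 3 genes overlapped between lines.

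Of 7 clock genes 5 were higher and 1 lower in line 252, with a median of 1.62. PRR1 differed by 1.71 ± 0.29. To complete the list after the values were seen, PRR37 differed by 1.62 ± 0.19, PRR95 by 1.56 ± 0.13 and PRR73, not called, by 0.94 ± 0.16. As the time of day of sampling was not given, line and sampling time cannot be told apart for these genes.

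Genes tied to light were higher in part. LIR1, a light-induced protein of the chloroplast, had 16530.1, 17288 and 19299 in line 252, against 972, 909 and 431 in line 082, a difference of 4.57 ± 0.27 (SE; adjusted p = 1.04e-07). PORA, which reduces protochlorophyllide in light, had 5223, 3243 and 2819 in line 252, against 289.5, 152 and 104 in line 082, a difference of 4.31 ± 0.32 (SE; adjusted p = 7.39e-07), and PORB differed by 1.37 ± 0.26. The phytochrome genes PhyB (1.47 ± 0.16) and phyC (1.38 ± 0.18) were the 2 of 8 flowering time genes called. Of 14 photosynthesis and light genes 4 were higher and 1 lower. PSAG (−1.12 ± 0.33), the lower one, overlapped between the lines, and the difference was −0.72 without replicate 1 of line 082 and −0.97 and −0.98 without replicates 2 and 3 of line 252, each under the minimum. The other PSAG probe set differed by −0.04. PSAH, also of photosystem I, differed by 1.18 ± 0.30, and by 0.94 without replicate 3 of line 082. The 6 green tissue markers summed to 49248 to 56214 in line 252 and 41199 to 51295 in line 082.

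Cell division genes were more often higher than lower in line 252, as were all genes (18.8% against 10.1%). Of 36 cyclins and cyclin-dependent kinase genes 10 were higher and 0 lower. CYCD5-1, a D-type cyclin of cell cycle entry, had 770.2, 926 and 996 in line 252, against 138, 90 and 31.5 in line 082, and differed by 3.31 ± 0.37 (SE; adjusted p = 2.19e-05). CYCD4-2 differed by 2.22 ± 0.28 and CYCA2-1 by 2.05 ± 0.27. The count was 6 without replicate 2 of line 252.

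Kinesins, motor proteins of spindle and phragmoplast, were higher in 14 of 31 cases and lower in 1, with a median of 0.91. KIN7J had 1082, 2042 and 1665 in line 252, against 127, 214 and 134 in line 082, and differed by 3.20 ± 0.34 (SE; adjusted p = 1.44e-05). KIN14E (2.23 ± 0.26), KIN14Q (2.19 ± 0.45) and KIN14R (2.05 ± 0.38) were the next. Replication and histone genes were mostly not called, with 3 of 33 higher and 1 lower: MCM9 (1.58 ± 0.40), RPA32-3 (1.49 ± 0.57) and the helicase gene MCM7 (1.09 ± 0.37) were higher, and the histone gene H2B.7 was lower (−1.16 ± 0.15), at −0.92 and not called after scaling to the spikes. RPA32-3 lost its call when any single optimal array was left out, MCM7 without replicate 1 or 2 of either line. Scaling moved the count of 3 to 1 with the 75th percentile and 5 with the spikes, and it was 1 without replicate 2 of either line. The summed signal of 8 dividing-cell markers was 15625 to 21618 in line 252 and 9695 to 15413 in line 082. Of these markers only CYCB1-1 (1.48) and CYCB2-2 (1.82) were called, and MCM2 went the other way (−0.20).

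Few genes of the meiosis list were called. Of 13, MEL1, an argonaute of premeiotic germ cells, was higher at 361, 256 and 361 against 48.8, 81 and 52.6 in line 082 (2.16 ± 0.32, adjusted p = 0.000157 from limma). SPO11-3, listed by its symbol alone, was lower (−1.37 ± 0.34), under the minimum without replicate 1 of line 082 (−0.95). At high temperature SPO11-3 averaged 2709 ± 381 in line 252 and 3267 ± 935 in line 082 (SD, n = 3). Without replicate 3 of line 252 or replicate 2 of line 082, 2 meiosis genes were higher. The 8 germ cell markers summed to 7048 to 8475 in line 252 and 4883 to 5773 in line 082. The difference in this sum was mostly that of SPO11-4 (averages of 3558 and 2326) and ZEP1 (2768 and 1865), neither called. PAIR2 (−0.31) and DMC1 (−0.16) went the other way, and CRC1 differed by 0.04. In the tapetum list of 5 measured genes, EAT1 was lower and CYP703A3, which hydroxylates fatty acids for the pollen wall, was higher (1.19 ± 0.40) with signals of 12.1 to 88.0 over both lines; that call was lost when any single 252 array or replicate 3 of line 082 was left out. The 5 tapetum markers summed to 145 to 211 in line 252 and 202 to 490 in line 082.

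The MADS-box and homeobox lists held calls in both directions, where 18.8% of all genes were higher and 10.1% lower. Of 26 MADS-box genes 10 were higher and 3 lower in line 252, with a median of 0.79. MADS29, active in the maternal tissues of the ovule and young seed, had 3943, 6939 and 5984 in line 252, against 948, 1339 and 1302 in line 082, and differed by 2.19 ± 0.59 (SE; adjusted p = 0.00897). MADS6, which acts in floral meristem and organ identity, differed by 1.77 ± 0.35. MADS22 had 2081, 336 and 362 in line 252, against 4492, 5427 and 6526 in line 082, a difference of −3.06 ± 0.53, or −3.90 without replicate 1 of line 252. MADS27 was lower too (−3.43 ± 0.39). Of 41 homeobox genes 11 were higher, with HOX1 (2.44 ± 0.30) and the knotted-type OSH3 (2.03 ± 0.57) as examples, and 3 were lower, among them Hox22 (−2.82 ± 0.42) and HOX24 (−2.43 ± 0.43); the 11 became 7 without replicate 2 or 3 of line 252 or replicate 3 of line 082.

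Jasmonate genes were higher in 10 of 31 cases and lower in 3. CM-LOX2 had 2191, 3056 and 3022 in line 252, against 383, 431 and 163 in line 082, and differed by 3.11 ± 0.34 (SE; adjusted p = 1.8e-05). Its other probe sets differed by 0.85 and 1.14. On the lower side stood 2 repressors of jasmonate signalling. JAZ8 had 112, 83.1 and 106 in line 252, against 1385, 835 and 1099 in line 082, a difference of −3.25 ± 0.23 (SE; adjusted p = 4.83e-07), and JAZ2 differed by −4.50 ± 0.55, with replicate 1 of line 252 at 56.3 and the other 252 arrays at 2.56 and 2.68.

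Defence genes were more often higher than lower in line 252, as were all genes (18.8% against 10.1%). Of 13 WRKY and pathogenesis-related genes 7 were higher and 0 lower in line 252, with a median of 1.16. NH4, of the family of the salicylic acid receptor NPR1, had 555, 896 and 949 in line 252, against 113, 109 and 59.5 in line 082, and differed by 2.90 ± 0.37 (SE; adjusted p = 5.42e-05). NH1 differed by 2.19 ± 0.36, WRKY24 by 2.17 ± 0.50 and WRKY76, a repressor of defence genes, by 2.15 ± 0.28. CPS4 and DTS2, which act in diterpenoid phytoalexin synthesis, differed by 3.96 ± 0.70 and 3.04 ± 0.60. Of 27 cytochrome P450 genes 10 were higher and 0 lower, led by CYP71Z7 of phytocassane synthesis (3.01 ± 0.72), CYP71P1 of serotonin synthesis (2.57 ± 0.23), CYP701A9 (2.24 ± 0.40) and CYP76M6 (2.14 ± 0.50). For CYP76M6 a further probe set differed by 0.51.

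The auxin and cytokinin lists held calls in both directions. Of 54 auxin genes 12 were higher and 5 lower, where 18.8% and 10.1% of all genes were. IAA30 (2.43 ± 0.55), ARF12 (2.23 ± 0.25) and ARF7 (1.70 ± 0.16) were higher and GH3-8, which conjugates auxin, was lower (−3.12 ± 0.38). Scaling decided that count: 5 auxin genes were higher after centring on the 75th percentile and 21 after scaling to the spikes, and 7 without replicate 2 of line 252 or replicate 2 or 3 of line 082. Of 30 cytokinin genes 10 were higher and 1 lower (0 or 2 when any single optimal array was left out). The 1 lower gene passed the filter on low signals only through the 082 optimal arrays, and 1 of the 10 only through those of line 252. Those higher included LOGL9 (2.79 ± 0.38) and LOGL10 (2.01 ± 0.40) of the activating LOG family and the oxidase gene CKX11 (2.45 ± 0.31). A further CKX11 probe set differed by 0.46. RR41 (2.11 ± 0.76) was higher too, but its call was lost when any single optimal array was left out.

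SLR1, the DELLA repressor of gibberellin signalling, was the 1 of 10 gibberellin genes called (2 without replicate 1 of either line), with 1839, 2856 and 3104 in line 252, against 636, 485 and 413 in line 082 and a difference of 2.30 ± 0.22 (SE; adjusted p = 7.19e-06). Of 28 abscisic acid and ethylene genes 9 were higher and 4 lower, or 2 lower without replicate 2 or 3 of line 252 or replicate 3 of line 082. Of the 4, 2 passed the filter on low signals only through the 082 optimal arrays, ETR4 among them. The ethylene synthesis gene ACO1 had 1031, 1217 and 1112 in line 252, against 139, 3.77 and 146 in line 082, and differed by 3.84 ± 0.78. The kinase gene SAPK9 (2.13 ± 0.18) and the ethylene receptor gene ERS2 (1.95 ± 0.24) were higher, and another receptor gene, ETR4, was lower (−2.85 ± 0.46).

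More ion and sugar transport genes were higher than lower in line 252, as held over all genes (18.8% against 10.1%). Of 75 ion and metal transport genes 22 were higher and 1 lower (2 without replicate 1 of line 252, and 3 and 4 without replicates 1 and 3 of line 082), including the phosphate transporter gene PT8 (3.23 ± 0.32), YSL7 (3.59 ± 0.43) for metal chelates and the ammonium transporter gene AMT3-3 (2.64 ± 0.49). The 1 lower gene passed the filter on low signals only through the 082 optimal arrays, and 2 of the 22 only through those of line 252. Of 20 sugar transport and invertase genes 8 were higher and 4 lower, with 5 higher without replicate 2 of line 082. The monosaccharide transporter gene MST3 had 4253, 8113 and 8877 in line 252, against 1203, 554 and 449 in line 082, a difference of 3.30 ± 0.37 (SE; adjusted p = 2.29e-05). SWEET5 was higher (3.18 ± 0.37), and SWEET15, a sugar exporter that feeds the filling grain, had 372, 575 and 633 in line 252, against 3519.9, 4580.3 and 4997 in line 082, a difference of −3.03 ± 0.77 (SE; adjusted p = 0.00633). SWEET2b was lower as well (−2.68 ± 0.37).

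Of 23 aquaporin genes 6 were higher and 6 lower, with NIP1-1 higher (2.82 ± 0.86; adjusted p = 0.0553 without replicate 3 of line 082) besides TIP4-1. Among 75 calcium sensor and kinase genes 16 were higher and 10 lower, where 18.8% and 10.1% of all genes were. Of the 16, 4 passed the filter on low signals only through the 252 optimal arrays, CPK2 among them, and so had to differ. CPK29 (3.78 ± 0.54) and CPK2 (3.11 ± 0.44) were on the higher side and CPK23 on the lower.

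Wall genes went both ways. Of 24 expansins, which loosen walls during growth, 6 were higher and 3 lower, where 18.8% and 10.1% of all genes were. EXPB9, of the beta-expansins abundant in grass pollen, had 5513, 7746 and 8412 in line 252, against 502, 956 and 182 in line 082, and differed by 3.94 ± 0.45 (SE; adjusted p = 2.54e-05). EXPB17 (3.76 ± 0.34), EXPA32 (3.44 ± 0.55) and EXPB10 (2.58 ± 0.50) were higher too. The 3 beta-expansin markers of pollen and loosening walls summed to 6644 to 9610 in line 252 and 681 to 1341 in line 082. The difference in this sum was mostly that of EXPB9, which averaged 7223.8 in line 252 and 546.7 in line 082. EXPB11, a marker as well, averaged 577.4 and 471.1 and was not called (0.27). Of 31 cellulose synthase and related genes 5 were higher and 7 lower, with CSLD5 (2.42 ± 0.41) and CSLH1 (2.26 ± 0.35) higher and CESA2 (−3.34 ± 0.36) and the secondary wall gene CESA7 (−2.48 ± 0.37) lower. Another CESA2 probe set differed by −0.03.

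Of 10 phenylpropanoid and flavonoid genes 4 were higher and 0 lower, or 1 lower without replicate 3 of line 252 or replicate 2 of line 082. CAD8C (3.52 ± 0.36), CAD7 (2.34 ± 0.38) and CAD8A (1.74 ± 0.48), of the cinnamyl alcohol dehydrogenase family, and CHI (1.30 ± 0.27), for a flavonoid enzyme, made up the 4. Another CAD8C probe set differed by −0.29. Of 2 class III peroxidases PRX74 was higher (2.52 ± 0.58).

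None of 21 cytosolic ribosomal protein genes was called, where 18.8% and 10.1% of all genes were, and their median was −0.40. At an unadjusted p under 0.05 from limma, without the fold minimum, 1 was higher and 11 were lower. By that rule 17421 of all 33610 probe sets differed, both directions together, so the count is no trait of this list. RPL30 (−0.96 ± 0.17 (SE; adjusted p = 0.000692)) and RPL5A (−0.96 ± 0.20 (SE; adjusted p = 0.00191)) had the largest differences, below 1 in size, without overlap, and both were called after centring on the 75th percentile (−1.13 each) and without replicate 1 of line 082 (−1.08 and −1.11), where 5 genes of the list were lower in each case. RPL30 was also called without replicate 1 of line 252 (−1.03). Of 48 antioxidant genes 5 were higher and 7 lower; those higher numbered 9 without replicate 1 and 3 without replicate 3 of line 082, 3 after centring on the 75th percentile and 10 after scaling to the spikes. The thioredoxin gene Trx20 (2.76 ± 0.24) and the glutaredoxin gene GRXC10 (2.52 ± 0.59) were higher and GRXS3 (−3.70 ± 0.37) was lower besides R1C-Prx. A further Trx20 probe set differed by 0.69. Of 9 germin-like genes GER7 was higher (2.14 ± 0.40) and GER3 lower.

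The difference between the lines at optimal temperature was then set against that at high temperature. Labelling controls moved with temperature: the Dap ratio averaged 17.5 ± 1.92 for line 252 and 17.9 ± 1.65 for line 082 at high temperature (SD, n = 3 each), against 2.23 and 2.12 at optimal temperature, and the median signal of an array lay between 36.5 and 41.9 on the heated arrays but between 55.2 and 68.4 on those from optimal temperature. Their part in this comparison was not tested. At high temperature 209 probe sets (0.622%) were higher and 382 (1.14%) lower in line 252. Of the probe sets higher in line 252 at optimal temperature 80 were also higher at high temperature, 1.56% of the optimal and 38.3% of the high temperature list. Of those lower 175 were shared, 4.30% of the optimal and 45.8% of the high temperature list. The test of the difference itself called 4128 probe sets (12.3%) as more positive and 3700 (11.0%) as more negative at optimal than at high temperature.

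Grain storage genes were dim in both lines at high temperature. At optimal temperature GLUA-1 averaged 14.9 ± 11.7 in line 252 and 38422 ± 5913 in line 082 (SD, n = 3), and at high temperature 30.8 ± 39.2 in line 252 and 7.35 ± 6.12 in line 082. GLUB-5 differed by −8.05 at optimal temperature and by 1.58 at high temperature, where it was called higher in line 252. For the maturation gene RAB21 the averages at optimal temperature were 12.7 ± 11.7 in line 252 and 1777 ± 534 in line 082, and at high temperature both lines were bright, with 2515 ± 947 in line 252 and 3207 ± 90.4 in line 082. CCA1 differed by −3.33 at optimal and 0.03 at high temperature, and PCL1 by 4.64 and −0.64.

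JAZ8 was lower in line 252 at both temperatures. At optimal temperature it averaged 100.4 ± 15.4 in line 252 and 1106 ± 275 in line 082, and at high temperature 97.3 ± 11 in line 252 and 2728 ± 605 in line 082, with differences of −3.25 and −4.58. It is singled out here after its values were seen.

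**Figure D5:**
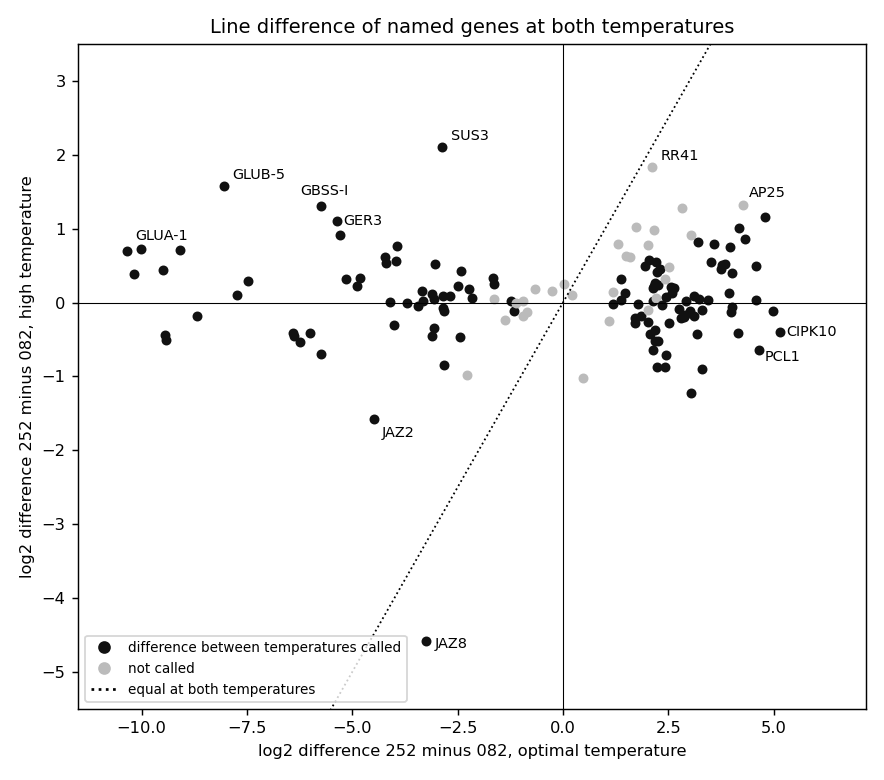
Log2 difference of line 252 minus line 082 for the 149 named genes at optimal temperature (horizontal axis) and at high temperature (vertical axis), black where the difference between temperatures was called (121 genes). Points spread from −10.35 to 5.15 along the horizontal axis and lie mostly between −1 and 1 on the vertical axis, with JAZ8 at −4.58 and SUS3 at 2.10 farthest from 0.

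Large differences were also measured by probe sets without a gene in the annotation, which was the case for 13690 of the 33610. The lowest in line 252 had 3.47, 1.82 and 3.42 in line 252, against 11380.4, 17834 and 16152 in line 082, a difference of −9.62 ± 0.24, and the next differed by −9.40 ± 0.33. The highest in line 252 had 5112, 6003 and 5548 in line 252, against 29.9, 5.98 and 3.19 in line 082, a difference of 7.69 ± 0.50 (SE; adjusted p = 3.15e-07), and the next differed by 7.59 ± 0.39. All but the highest passed the filter on low signals only through the optimal arrays of the line where they were bright, so those differences are descriptions. The 2 that were higher in line 252 went beyond CIPK10, the largest named difference in that direction.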

How the data were processed

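Signals of 12 arrays were used, 3 for each of 2 lines at 2 temperatures. Per the labels, 6 µg of total RNA gave biotin-labelled cRNA. The authors deposited linear intensity values from MAS5, as named in the submitters' processing notes; its version is not given in the sources used here. Each array had a 2% trimmed mean of 500.1, and no pair was identical. Controls (187) were left out, and a probe set was kept where it passed its array's median on 3 or more of the 12 arrays. limma (version 3.58.1, R 4.3.3) was fitted to log2(signal + 16) with 4 group means, 8 residual degrees of freedom and an intensity trend, with Benjamini-Hochberg adjustment over all 33610 probe sets. The fit was tested on simulated data.

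Genes came from the platform annotation and a RefSeq table: 17905 had a probe set, 2459 a name, and each is shown by its brightest kept probe set. Named genes were the up to 15 largest non-overlapping calls per direction, up to 4 per list (2 where none was called), 11 heat, starch and clock genes in any case, up to 6 per direction between temperatures and up to 2 probe sets without a gene per direction. Members of the 37 lists were matched on symbols, and lists and rules were chosen with earlier results of these data known. Sequences and coordinates are not used here. The alternatives were 2 scalings, quantile normalization, pseudocounts of 1 and 64, other filters, no trend, array weights, a replicate block, the 6 optimal arrays alone, no fold minimum, 2 gene summaries and leaving out each optimal array.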

Additional observations from a re-analysis of the deposited data

Results flagged for a closer look

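The difference between the lines was itself different at the 2 temperatures for many probe sets: in limma's test of the difference, 4128 were more positive and 3700 more negative at optimal than at high temperature. The Dap ratio and the array medians also moved with temperature, and the actin and GAPDH 3′/5′ ratios parted the lines more at optimal temperature. The part of these controls was not tested. The named genes with the largest values, on the log2 scale and as the optimal minus the high temperature difference, were grain and seed genes on the negative side. They were GLUA-1 (−11.05), GLUD-1 (−10.74), PROLM25 (−10.57), GLUA-3 (−9.91), RA17 (−9.79) and GLUB-5 (−9.63). On the positive side stood CIPK10 (5.55), PCL1 (5.28), CM-LOX1 (5.11), TIP4-1 (4.57), GLT2 (4.55) and DTS2 (4.26). For these 6 genes line 252 was higher at optimal temperature and no difference was called at high temperature.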

How the results depend on the processing

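Against 5142 probe sets higher and 4066 lower in line 252 (4128 more positive and 3700 more negative at optimal than at high temperature), 4 alternatives moved a count by over 1.5 times. A filter at the 75th percentile tested fewer probe sets and gave 2888 and 2384 (2645 and 2424). Without a fold minimum 8539 were higher and 6498 lower. With 1 probe set per gene, fewer features were tested and the counts were 3123 and 1671 (2613 and 1626), and with probe sets averaged per gene 3017 and 1733 (2479 and 1680). Centring on the 75th percentile gave 4078 and 5024, and scaling to the spikes 7229 and 3160. Leaving out single optimal arrays gave 4525 to 5667 higher and 3683 to 4353 lower. The replicate numbers did not pair the arrays (correlations of same-numbered deviations −0.02, 0 and −0.06); with replicate number as a block 5102 were higher and 4046 lower (4035 and 3645). Of 149 named genes 115 had a value in all 21 alternatives and 100 of these kept direction and side of the threshold in each; the other 34 did not pass the filter at the 75th percentile, and 30 of them kept both in the remaining alternatives. HSFA2D turned from 0.03 to −1.21 with the mean over its probe sets, 1 of which differed by −2.46. No small heat shock count changed by over 1.5 times. With 3 arrays a group, signals under the array medians limit the size of the differences: GLUA-1 depends on the 16 added.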

Other observations

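Calls were spread over the genome. Over the 12 chromosomes of the RefSeq table, 17.2% to 21% of the measured genes were higher and 9.32% to 11.2% lower in line 252 at optimal temperature, with chromosome 4 at the upper end for genes higher in line 252 (306 of 1458).

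Replicate 1 of line 082 stood apart from its group along the second principal component of the 6 arrays, which held 7.9% of the variance, at 74.3 against −25.4 and −41 for replicates 2 and 3. The first component held 76.9% and parted the lines. Replicate 1 of line 252, the array with the bright starch genes, was at 95.8 on it, against 129.7 and 131.5 for the other 252 arrays and −94.1 to −137.4 for the 082 arrays.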
